A study of Mus musculus with 6 samples.

Results

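The genes described here are 10 of prostaglandin synthesis, degradation and reception, measured in collecting duct cells that were sorted from kidneys of newborn mice with and without a conditional deletion of the bradykinin B2 receptor. They were the cyclooxygenases Ptgs1 and Ptgs2, the prostaglandin E synthases Ptges and Ptges2, the prostacyclin synthase Ptgis, the prostaglandin D synthase Ptgds, the degrading enzyme Hpgd and the EP receptors Ptger1, Ptger3 and Ptger4. The genes were taken by name. Every probe whose RefSeq accession maps to one of these symbols was kept, which gave 13 probes of 10 genes, out of 55681 probes and 20887 named genes on the array.

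Prostanoids are made from arachidonic acid, which phospholipases release from membranes. Cyclooxygenases turn it into an unstable intermediate, and terminal synthases turn this into prostaglandins E, D and F, prostacyclin or thromboxane, each with receptors of its own. In the collecting duct bradykinin raises prostaglandin E output through its B2 receptor, and prostaglandin E acts back on salt and water transport through EP receptors of the same and neighbouring segments.

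The groups were 3 WT pools, Hoxb7cre+; R26RtdTomato; Bdkrb2+/+, and 3 MUT pools, Hoxb7cre+; R26RtdTomato; Bdkrb2f/f, all on C57BL/6 and sorted on GFP and tdTomato at postnatal day 1 from kidneys under salt stress. Both groups thus carried the Hoxb7 Cre driver of the ureteric lineage and the reporter, and were salt-stressed; they differed in the floxed Bdkrb2 alleles. Each pool was hybridised in Cy5 against RNA of WT pool 1 in Cy3 on a two-colour Agilent array. Each value below is thus a log2 ratio to WT pool 1, and 1 of the arrays was a self-hybridisation of that RNA. The sources used here do not say how many mice made up a pool, and p-values measure the spread between these pools.

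Each array had 27022 to 31310 of its 55681 probes well above the Cy5 background, and precision is limited by there being 3 arrays per group. The 1 probe of Bdkrb2 was well above background on none of the 6 arrays, so the deletion could not be followed. Of the markers of the sorted cells, all 6 tested principal cell genes and 6 of 8 ureteric epithelium genes fell in MUT pools, although Hoxb7 was at 0.26 with the spike-in controls used below; each of these 14 genes was well above background on all 6 arrays. In whole pools, fewer cells of a type and less RNA per cell cannot be told apart. Values are after loess normalization within each array, where the median tested probe changed by 0.00 between groups. With each array centred on its median in place of loess that median was 0.23, and it was 0.95 when spike-in controls set the level of each array after loess. Falls therefore shrink and rises grow under those scalings, and a direction that turns is named with its gene. The spike-in level itself was unequal within each group. Its log2 shift per array spanned 0.01 (pool 1) to 1.01 (pool 3) among WT, with pool 2 at 0.39. Among MUT it spanned -0.7 (pool 1) to -0.18 (pool 3), with pool 2 at -0.55. For every probe of the genes described here the SE was 0.38 under those controls and 0.09 to 0.26 after loess alone. Differences under the spike-in controls were thus less precise. The same shift of an array was taken from all its probes, so its error is common to all of them. Limma's test, used below, pools the spread over probes as if they were separate. Adjusted p-values under those controls can therefore be too small.

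All 13 probes were well above background on all 6 arrays in both channels, so none was lost to the filter on dim probes. Prostacyclin synthase rose in MUT pools, whereas the EP3 and EP1 receptors, Ptges2, Ptgds and Ptgs2 fell. With the spike-in controls EP1 and Ptgs2 did not fall, and Ptges2 (-0.16) and Ptgds (-0.05) were within their SE of 0.38. Counting each gene by its brightest probe, 6 of 10 genes passed an adjusted p of 0.05 in limma's test, 1 higher and 5 lower, where 32.8% of the 14585 tested genes did (14% higher and 18.8% lower). Under the spike-in controls 5 of the 10 passed, 4 higher (Ptgis, Ptges, Hpgd and Ptger4) and 1 lower (Ptger3). These calls share the error of the array shifts and are not separate findings. Over the array 66% of tested probes passed under those controls, 98.9% of them higher, so a rise there is not particular to these genes. By probe, after loess alone, 8 of 13 passed, 1 higher and 7 lower, against 26.1% of all tested probes (11.6% higher and 14.6% lower). The added falls were those of the dimmer Ptges and Ptger3 probes. The pools did not overlap between groups for 8 of the 10 genes, against 52.5% of tested genes, and for 11 of the 13 probes, against 46% of tested probes. The median change over the 10 genes was -0.45, beside -0.02 over all tested genes. Ptgs1, Hpgd and Ptger4 did not pass, nor did the brighter Ptges probe.

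**Figure D1:**
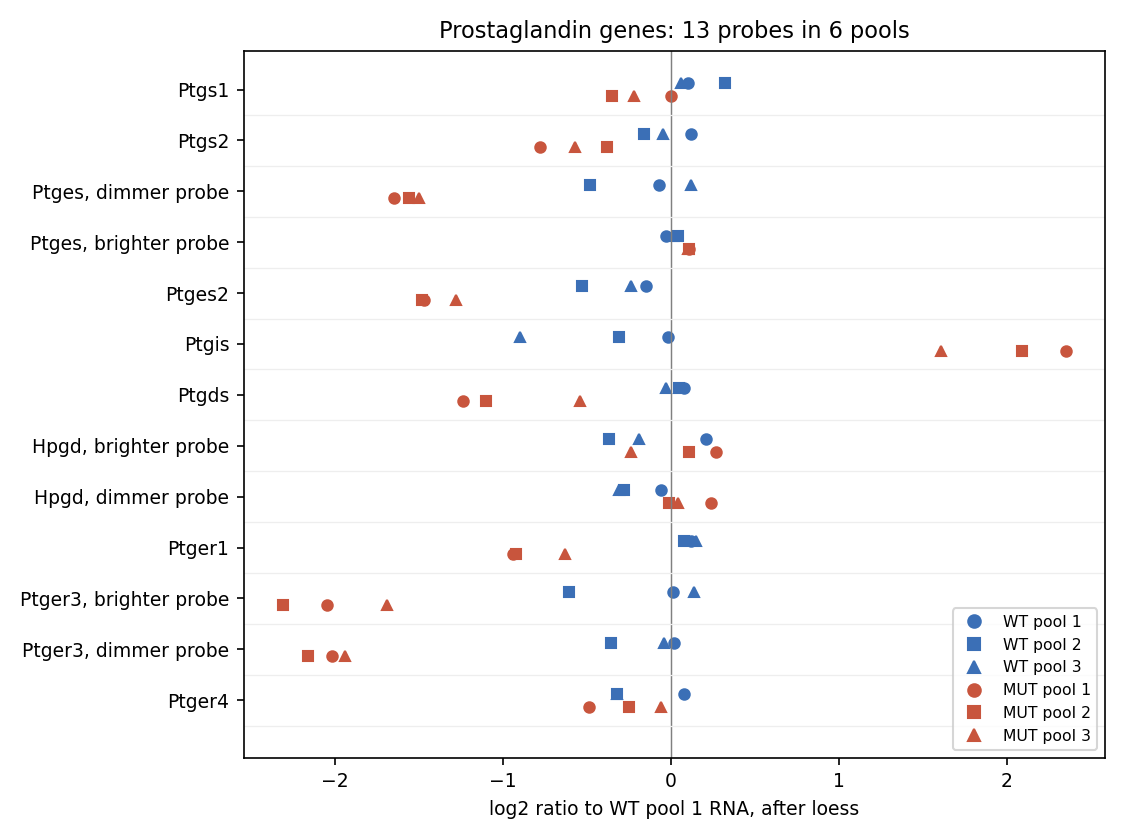
Log2 ratio to WT pool 1 RNA after loess (horizontal axis) for each of the 13 probes (vertical axis), with 1 symbol per pool, WT in blue and MUT in red. Ptgis lies at 1.61 to 2.35 in MUT pools and at -0.90 to -0.02 in WT pools, and both Ptger3 probes lie at or under -1.69 in MUT pools.

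The Cy3 channel held the same RNA on every array, so its spread is technical. Over the 6 arrays the SD of the normalized Cy3 log2 intensity was 0.04 (Ptgs2) to 0.19 (Ptgds) among the 13 probes. In the self-hybridisation of WT pool 1 the ratios of the 13 probes ran from -0.15 (Ptges2) to 0.21 (brighter Hpgd probe). This spread does not include that between pools.

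Of the cyclooxygenases, which catalyse the first committed step, Ptgs2 fell after loess, by a fold that depends on the background correction. Ptgs1 did not pass the test. Ptgs1, the constitutive enzyme, was at 0.10, 0.32 and 0.06 in WT pools 1 to 3 and at 0.00, -0.35 and -0.22 in MUT pools 1 to 3. Every MUT pool lay under every WT pool, but the difference of -0.35 ± 0.13 (SE, n = 3 per group) had an adjusted p of 0.0823. Without MUT pool 1 it was -0.44 with an adjusted p of 0.0157, and with the spike-in controls it was 0.60. Ptgs2, the inducible enzyme, was at 0.12, -0.16 and -0.05 in WT pools and at -0.78, -0.38 and -0.57 in MUT pools. The groups did not overlap, and the gene fell by 0.54 ± 0.13 (SE, n = 3 per group), or 1.46-fold. From the scanner-processed signals the fall was 1.99-fold, and with a background offset of 10 in place of 50 it was 1.68-fold. With the offset of 50 the fall passed limma's test with an adjusted p of 0.0212. This call was lost without WT pool 1 (adjusted p = 0.0816), without WT pool 3 (0.0765), without MUT pool 3 (0.0535), with median centring (0.193) and with a slide row block (0.0811), and the difference turned to 0.41 with the spike-in controls.

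Within an array, the difference between the Ptgs2 and Ptgs1 ratios is not altered by a constant shift of that array. It was -0.19 ± 0.26 (SD, n = 3) in WT pools and -0.39 ± 0.37 (SD, n = 3) in MUT pools, and these overlapped (exact two-sided permutation p = 0.6). An unequal change of the cyclooxygenases was therefore not resolved with 3 pools per group.

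Ptges and Ptges2 encode prostaglandin E synthases, of which Ptges is the inducible microsomal enzyme. Ptges2 was at -0.15, -0.53 and -0.24 in WT pools 1 to 3 and at -1.47, -1.48 and -1.28 in MUT pools 1 to 3. All MUT pools lay well under the lowest WT pool, WT pool 2, and the gene fell by 1.11 ± 0.13 (SE, n = 3 per group), or 2.15-fold (adjusted p = 0.00106). With the spike-in controls it fell by 0.16, which did not pass (adjusted p = 0.699), so its size depends on the scaling although its sign was kept there.

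The probes of Ptges disagreed, although both carry the same RefSeq accession. The dimmer probe was at -0.07, -0.48 and 0.12 in WT pools and at -1.65, -1.56 and -1.50 in MUT pools. It fell by 1.42 ± 0.16 (SE, n = 3 per group), or 2.68-fold (adjusted p = 0.000844), and was at -0.47 with the spike-in controls (adjusted p = 0.239). The brighter probe was at -0.03, 0.04 and 0.01 in WT pools and at 0.11, 0.11 and 0.10 in MUT pools, a difference of 0.10 ± 0.09 (SE, n = 3 per group, adjusted p = 0.463), and no array had a saturated spot. The brighter probe passed as higher, at 1.05 (adjusted p = 0.0147), with the spike-in controls, where the median tested probe was at 0.95. The dimmer minus the brighter ratio was -0.15 ± 0.33 (SD, n = 3) in WT pools and -1.67 ± 0.08 (SD, n = 3) in MUT pools, with no overlap. Which part of the transcript each probe matches was not determined, so Ptges has no single direction in these data.

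**Figure D2:**
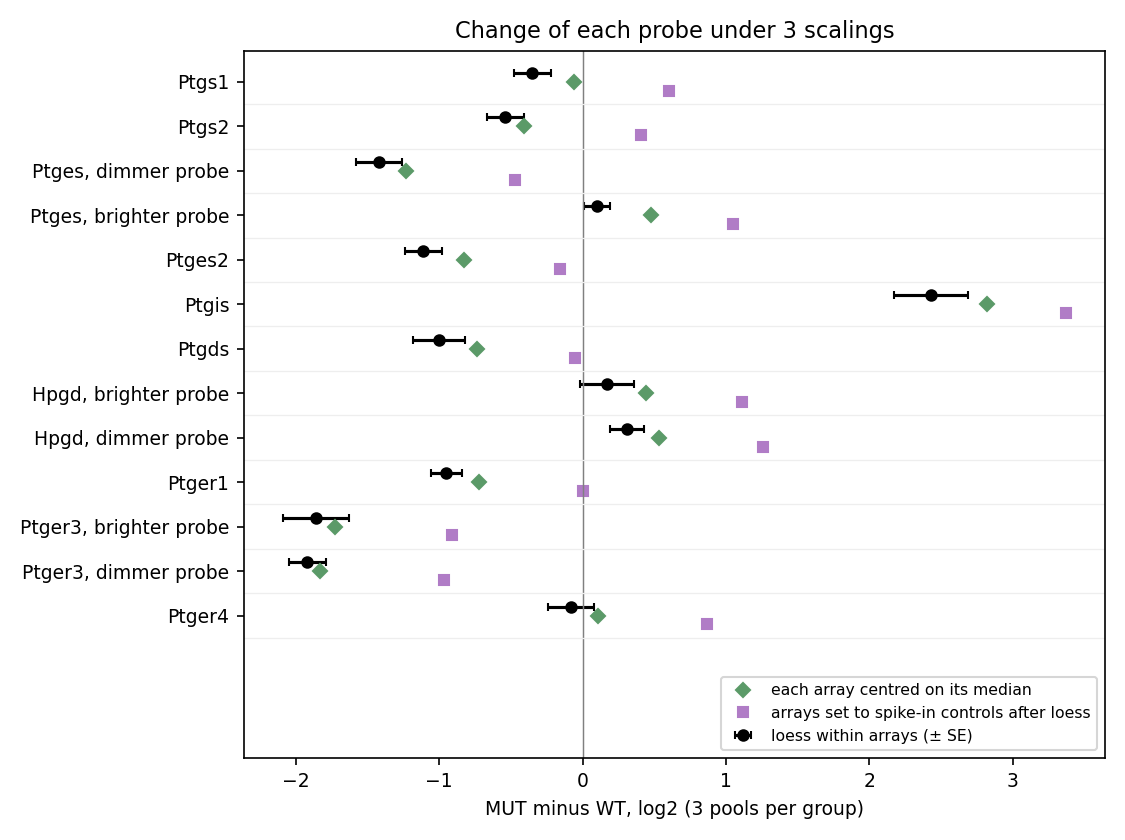
MUT minus WT difference in log2 (horizontal axis) of the 13 probes (vertical axis), after loess with its SE (black circles, n = 3 pools per group), with each array centred on its median (green diamonds) and with arrays set to spike-in controls after loess (purple squares). Ptgis stays above 0 at 2.43, 2.82 and 3.37 and both Ptger3 probes stay below 0, whereas Ptgs1 and Ptgs2 turn positive and Ptger1 reaches 0.00 with the spike-in controls.

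The synthases of other prostanoids went opposite ways. Ptgis, a cytochrome P450 enzyme that makes prostacyclin and is known from vessel walls, was at -0.02, -0.31 and -0.90 in WT pools 1 to 3 and at 2.35, 2.09 and 1.61 in MUT pools 1 to 3. It rose by 2.43 ± 0.26 (SE, n = 3 per group), or 5.37-fold (adjusted p = 0.000709), and 99.8% of tested genes had a lower change. Its normalized Cy5 log2 intensity was 9.14, 8.77 and 8.20 on the WT arrays and 11.50, 11.40 and 11.07 on the MUT arrays, while Cy3, the common RNA, stayed between 9.08 and 9.47. The rise kept its direction and its call in all 18 alternative settings, with 2.04 when the slide row was a block. That setting compares the MUT pools with WT pool 1 alone, the WT pool in their row of the slide. WT pools 2 and 3 lay in the other row, without any MUT pool, so row and group are largely confounded. Settings that changed only the filter on dim probes, a block by pool number or the variance estimate left the difference at 2.43 by design. The authors' value table repeats the scanner-processed ratios, and both gave 2.72.

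Ptgds, which makes prostaglandin D and is also a lipocalin carrier of small lipophilic molecules, was at 0.08, 0.05 and -0.03 in WT pools and at -1.24, -1.10 and -0.54 in MUT pools. The WT pools were close together and the MUT pools were spread more widely, with MUT pool 3 closest to WT. The gene fell by 1.00 ± 0.18 (SE, n = 3 per group, adjusted p = 0.00567), but did not pass with median centring (-0.74, adjusted p = 0.0565), with the slide row as a block (-1.04, adjusted p = 0.0714) or with the spike-in controls (-0.05, adjusted p = 0.902). Within arrays, Ptgis minus Ptgds was -0.45 ± 0.39 (SD, n = 3) in WT pools and 2.98 ± 0.74 (SD, n = 3) in MUT pools. Ptgis minus Ptges2 was -0.11 ± 0.49 (SD, n = 3) and 3.43 ± 0.48 (SD, n = 3), a difference of 3.53 between groups. Both pairs were chosen after their values were seen and follow from the changes above, and each had an exact two-sided permutation p of 0.1, the smallest possible (Benjamini-Hochberg adjusted 0.117 over 7 pairs).

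Hpgd, the dehydrogenase that inactivates prostaglandins E and F, did not pass at either of its probes. The brighter probe was at 0.21, -0.37 and -0.19 in WT pools and at 0.27, 0.11 and -0.24 in MUT pools, so the groups overlapped (0.17 ± 0.19, SE, n = 3 per group, adjusted p = 0.546). With the slide row as a block this difference was -0.16. The dimmer probe was at -0.06, -0.28 and -0.31 in WT pools and at 0.24, -0.01 and 0.04 in MUT pools, a difference of 0.31 ± 0.12 (SE, n = 3 per group, adjusted p = 0.0901) without overlap. With the spike-in controls the probes were at 1.11 and 1.26, and both passed (adjusted p = 0.0104 and 0.00469). The median tested probe was at 0.95 there.

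Among the EP receptors, Ptger3 fell most, Ptger1 fell less (and not with the spike-in controls), and Ptger4 did not pass. Their upstream sequences are shown here for Ptger3 and Ptger4, the receptors at either end of that order, and for Ptges2 and Ptgs2, the enzymes of prostaglandin E output that fell. Each is the 250 bases before the annotated start, 5′ to 3′, from RefSeq on GRCm38.p6. Of the 10 genes 8 had an entry, and Ptgis and Ptger1 had none. The windows are chr3:157566626-157566875 (plus strand) for Ptger3, chr15:5244188-5244437 (minus strand) for Ptger4, chr2:32395640-32395889 (plus strand) for Ptges2 and chr1:150099781-150100030 (plus strand) for Ptgs2. Capitals mark a match, on either strand, to any of 5 motifs. The GC box was searched as GGGCGG, and the E-box, a site of helix-loop-helix factors, as CACGTG. The TATA box was searched as TATAAA and the cAMP response element as TGACGTCA. The CCAAT box has its letters as its name.
Ptger3: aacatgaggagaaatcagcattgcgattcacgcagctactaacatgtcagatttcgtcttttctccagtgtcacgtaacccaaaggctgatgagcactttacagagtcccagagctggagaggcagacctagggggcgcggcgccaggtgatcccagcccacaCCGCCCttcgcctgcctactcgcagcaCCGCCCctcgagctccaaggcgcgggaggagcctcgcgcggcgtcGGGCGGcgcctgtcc
Ptger4: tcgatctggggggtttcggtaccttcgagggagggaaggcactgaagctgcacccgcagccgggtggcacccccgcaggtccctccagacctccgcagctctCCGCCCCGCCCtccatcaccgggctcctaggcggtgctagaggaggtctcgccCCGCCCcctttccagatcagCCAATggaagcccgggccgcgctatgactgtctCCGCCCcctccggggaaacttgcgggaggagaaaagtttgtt
Ptges2: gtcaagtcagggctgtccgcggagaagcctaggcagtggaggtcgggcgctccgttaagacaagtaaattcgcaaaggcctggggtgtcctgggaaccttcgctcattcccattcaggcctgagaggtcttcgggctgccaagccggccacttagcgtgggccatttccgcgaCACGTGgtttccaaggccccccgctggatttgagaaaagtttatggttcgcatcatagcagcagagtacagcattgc
Ptgs2: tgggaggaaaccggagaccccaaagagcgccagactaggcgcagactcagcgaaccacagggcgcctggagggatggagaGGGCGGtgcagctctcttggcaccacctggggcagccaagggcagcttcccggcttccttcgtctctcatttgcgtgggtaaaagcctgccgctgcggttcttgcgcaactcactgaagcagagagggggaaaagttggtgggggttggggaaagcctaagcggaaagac

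The Ptger3 window held 3 GC boxes, and that of Ptger4 held 4, of which a pair share a base, together with 1 CCAAT box. The Ptgs2 window held 1 GC box, and that of Ptges2 held none and 1 E-box. No letters of these motifs overlapped between different motifs. Over the 8 genes with an entry, 5 windows held a GC box, against 32.7% of 32851 windows of the same length. A CCAAT box stood in 1 of 8 (33.8% of all), an E-box in 1 of 8 (6.02% of all), and a TATA box (12.4% of all) or cAMP response element (1.55% of all) in 0 of 8. GC boxes stood before genes that fell (Ptger3, Ptgs2) and before genes that did not pass (Ptger4, Hpgd).

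Ptger3 encodes EP3, a receptor that mainly lowers cAMP and is known from the thick ascending limb and collecting duct. Its brighter probe was at 0.01, -0.61 and 0.14 in WT pools 1 to 3 and at -2.05, -2.31 and -1.69 in MUT pools 1 to 3. Its dimmer probe was at 0.02, -0.36 and -0.04 in WT pools and at -2.02, -2.16 and -1.94 in MUT pools. Both probes separated the groups without overlap, with WT pool 2 the lowest WT pool and MUT pool 2 the lowest MUT pool at each. The brighter probe fell by 1.86 ± 0.23 (SE, n = 3 per group), or 3.64-fold (adjusted p = 0.00118), and the dimmer by 1.92 ± 0.13 (SE, n = 3 per group), or 3.78-fold (adjusted p = 0.000365). Under 1% of tested genes, 0.994%, had a lower change than the brighter probe. Cy3 at that probe ranged from 8.80 to 9.28 while Cy5 went from 9.23, 8.54 and 9.42 on WT arrays to 7.17, 6.73 and 7.12 on MUT arrays. From the scanner-processed signals the falls were larger, 5.87-fold at the brighter probe and 7.01-fold at the dimmer, whose Cy5 on the MUT arrays was 6.45, 6.28 and 6.57. Both folds therefore depend on the background correction. The falls kept their direction and their call under all 19 alternatives for the brighter probe and all 18 for the dimmer. Under the spike-in controls they were at -0.91 and -0.97, each with an SE of 0.38 (adjusted p = 0.0284 and 0.0215 in limma's test). That test leaves out the error of the array shifts that all probes share, so the call is uncertain there. As for Ptgis, some alternatives leave the difference unaltered by design.

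Ptger1 encodes EP1, which couples to calcium and is known from the collecting duct. It was at 0.12, 0.08 and 0.15 in WT pools and at -0.94, -0.92 and -0.63 in MUT pools. The WT pools were close together and all MUT pools lay well under them. The gene fell by 0.95 ± 0.11 (SE, n = 3 per group), or 1.93-fold (adjusted p = 0.00114). With the spike-in controls the difference was 0.00, so its fall depends on the scaling.

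Ptger4 encodes EP4, which raises cAMP. It was at 0.08, -0.32 and -0.32 in WT pools and at -0.49, -0.25 and -0.06 in MUT pools, with the groups interleaved. The difference was -0.08 ± 0.16 (SE, n = 3 per group, adjusted p = 0.738), and it was 0.11 with median centring. With the spike-in controls it was 0.87 (adjusted p = 0.0363), where the median tested probe was at 0.95. The remaining EP receptor, Ptger2, was well above background on 1 WT array and no MUT array, and was not tested.

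The EP receptors can also be set against each other within arrays, on pairs that were chosen after their values were seen; these restate the changes above pool by pool and are no further support for them. Ptger3 minus Ptger1 was -0.27 ± 0.37 (SD, n = 3) in WT pools and -1.19 ± 0.18 (SD, n = 3) in MUT pools. Ptger3 minus Ptger4 went from 0.03 ± 0.38 (SD, n = 3) to -1.75 ± 0.27 (SD, n = 3), a relative fall of 3.44-fold. Ptger1 minus Ptger4 went from 0.30 ± 0.23 (SD, n = 3) to -0.57 ± 0.11 (SD, n = 3). In each of these 3 pairs the WT and MUT pools did not overlap, and each reached the smallest p that 3 against 3 pools allow (exact two-sided permutation p = 0.1, Benjamini-Hochberg adjusted 0.117 over 7 pairs).

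**Figure D3:**
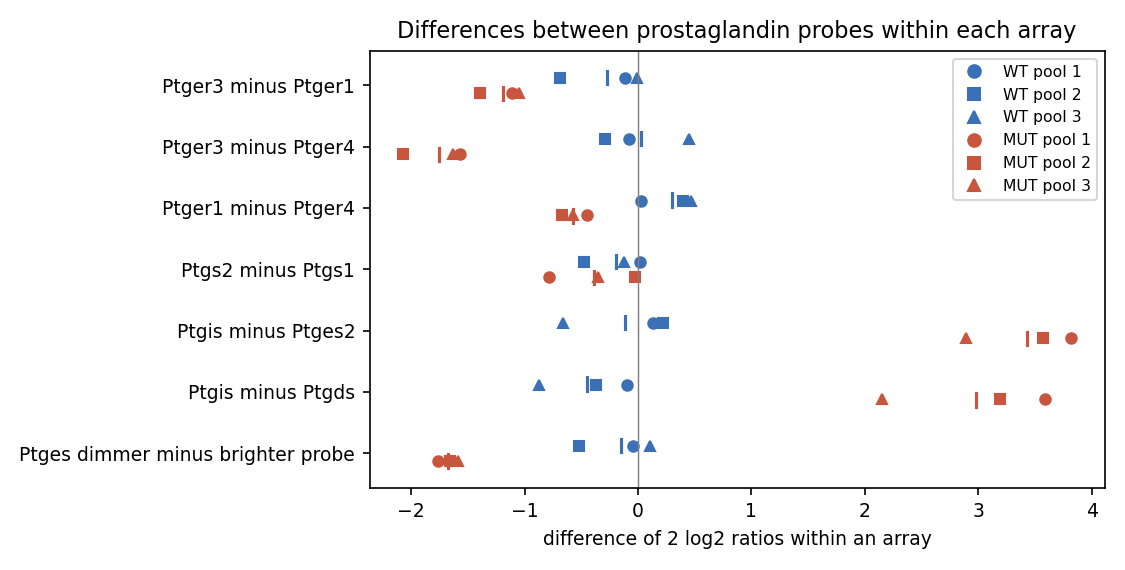
Difference of 2 log2 ratios within an array (horizontal axis) for 7 pairs of probes (vertical axis), with 1 symbol per pool, WT in blue and MUT in red, and a bar at each group mean. The groups are apart in 6 of the 7 pairs, the exception being Ptgs2 minus Ptgs1, which overlaps.

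Beyond the 10 genes, 52 other genes of prostanoid and arachidonic acid metabolism were listed, of which 50 were on the array and 34 were tested by their brightest probe. Of these 34, 4 rose and 12 fell (47.1% passed, against 32.8% of all tested genes), and their median change was 0.01. With the spike-in controls all 4 that rose stayed above 0, and of the 12 that fell 5 stayed below 0 and 7 did not. These are signs only, and Ephx2, 1 of the 5, was at -0.02. Among the 10 genes, -0.47 at the dimmer Ptges probe did not pass limma's test under those controls (adjusted p = 0.239). Leaving out any 1 pool kept the call of 14 of the 16. With a slide row block 5 of the 16 did not pass: Faah (adjusted p = 0.0521), Tbxa2r (0.0934), Slco2a1 (0.056), Alox5ap (0.299) and Alox12 (0.106). Over the array 7.56% of tested probes passed with that block, against 26.1% without it.

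Prostanoid receptors outside the EP family were among those that passed. Ptgir, the prostacyclin receptor, rose with its synthase, by 1.65 ± 0.16 (SE, n = 3 per group), or 3.14-fold (adjusted p = 0.000543). It was at 0.12, -0.47 and -0.17 in WT pools and at 1.61, 1.48 and 1.34 in MUT pools, and 2 of 3 WT arrays had it well above background. Ptgfr, the prostaglandin F receptor, was at 0.07, -0.23 and 0.03 in WT pools and at -1.31, -1.54 and -1.49 in MUT pools. It fell by 1.40 ± 0.12 (SE, n = 3 per group), or 2.65-fold (adjusted p = 0.000441), and was at -0.46 with the spike-in controls. Ptgfr was dim on the MUT arrays, with Cy5 at 6.44, 6.35 and 6.30, and the background offset understates folds of dim probes. Tbxa2r, the thromboxane receptor, fell by 0.65 ± 0.14 (SE, n = 3 per group, adjusted p = 0.0112), but was at 0.29 with the spike-in controls and did not pass without WT pool 3 (adjusted p = 0.0545). The prostaglandin D receptors Ptgdr and Ptgdr2 were well above background on none of the arrays.

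Of 6 tested genes of other synthases, 1 rose and 2 fell. Tbxas1, thromboxane synthase, fell by 1.30 ± 0.16 (SE, n = 3 per group), or 2.46-fold (adjusted p = 0.00125), and was at -0.35 with the spike-in controls. Akr1b3, an aldose reductase that can make prostaglandin F, fell by 0.64 ± 0.09 (SE) but was at 0.31 with those controls. Akr1c18, a hydroxysteroid dehydrogenase of the same superfamily, rose by 1.16 ± 0.11 (SE) and 1 of 3 WT arrays had it well above background. Ptges3, the cytosolic synthase and co-chaperone, did not pass at any of its probes, and its brightest was at 0.22 ± 0.16 (SE).

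In transport and further inactivation 2 of 4 tested genes fell. Slco2a1, the prostaglandin transporter, fell by 0.94 ± 0.16 (SE, n = 3 per group, adjusted p = 0.00491), and Ptgr2, a prostaglandin reductase, by 0.77 ± 0.12 (SE, n = 3 per group, adjusted p = 0.00337). With the spike-in controls these were at 0.01 and 0.18, so neither kept its sign. Abcc4, an exporter of prostaglandins, was at 0.03 ± 0.13 (SE).

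In arachidonic acid release 1 of 11 tested genes rose and 2 fell, with a median of 0.07. Pla2g4a, the cytosolic phospholipase that supplies cyclooxygenases, was at -0.02, -0.08 and 0.15 in WT pools and at 0.12, -0.05 and -0.02 in MUT pools, with overlap and a difference of 0.00 ± 0.11 (SE, n = 3 per group, adjusted p = 0.997). Pla2g7, which hydrolyses platelet-activating factor, rose by 1.32 ± 0.16 (SE). Mgll, the monoacylglycerol lipase, which can supply arachidonic acid, fell by 1.18 ± 0.11 (SE) at its brightest probe, and was at -0.23 with the spike-in controls. Faah, which hydrolyses anandamide, fell by 0.73 ± 0.13 (SE), but was at 0.22 with those controls.

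Routes of arachidonic acid other than cyclooxygenase had 1 of 10 tested genes higher and 4 lower. Ltc4s, leukotriene C synthase, fell by 1.55 ± 0.24 (SE), or 2.93-fold, and was at -0.60 with the spike-in controls. The epoxide hydrolases Ephx1 and Ephx2 fell by 0.92 ± 0.12 (SE) and 0.97 ± 0.14 (SE), and were at 0.03 and -0.02 with those controls. Alox12, a lipoxygenase, fell by 0.79 ± 0.14 (SE) and was at 0.16 with them. Alox5ap, the activating protein of 5-lipoxygenase and a gene of leukocytes, rose by 0.69 ± 0.17 (SE, n = 3 per group, adjusted p = 0.0199), and did not pass without WT pool 3 (adjusted p = 0.0852), which was 1 of 3 such omissions. Beside it, 6 of 7 leukocyte markers rose and 1, Ptprc, fell, although Ptprc was at 0.52 with the spike-in controls. With a slide row block none of the 7 passed (adjusted p of 0.0516 to 0.29). Over the array 2177 of the 7584 called probes kept their call with that block, which compares the MUT pools with WT pool 1 alone.

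**Figure D4:**
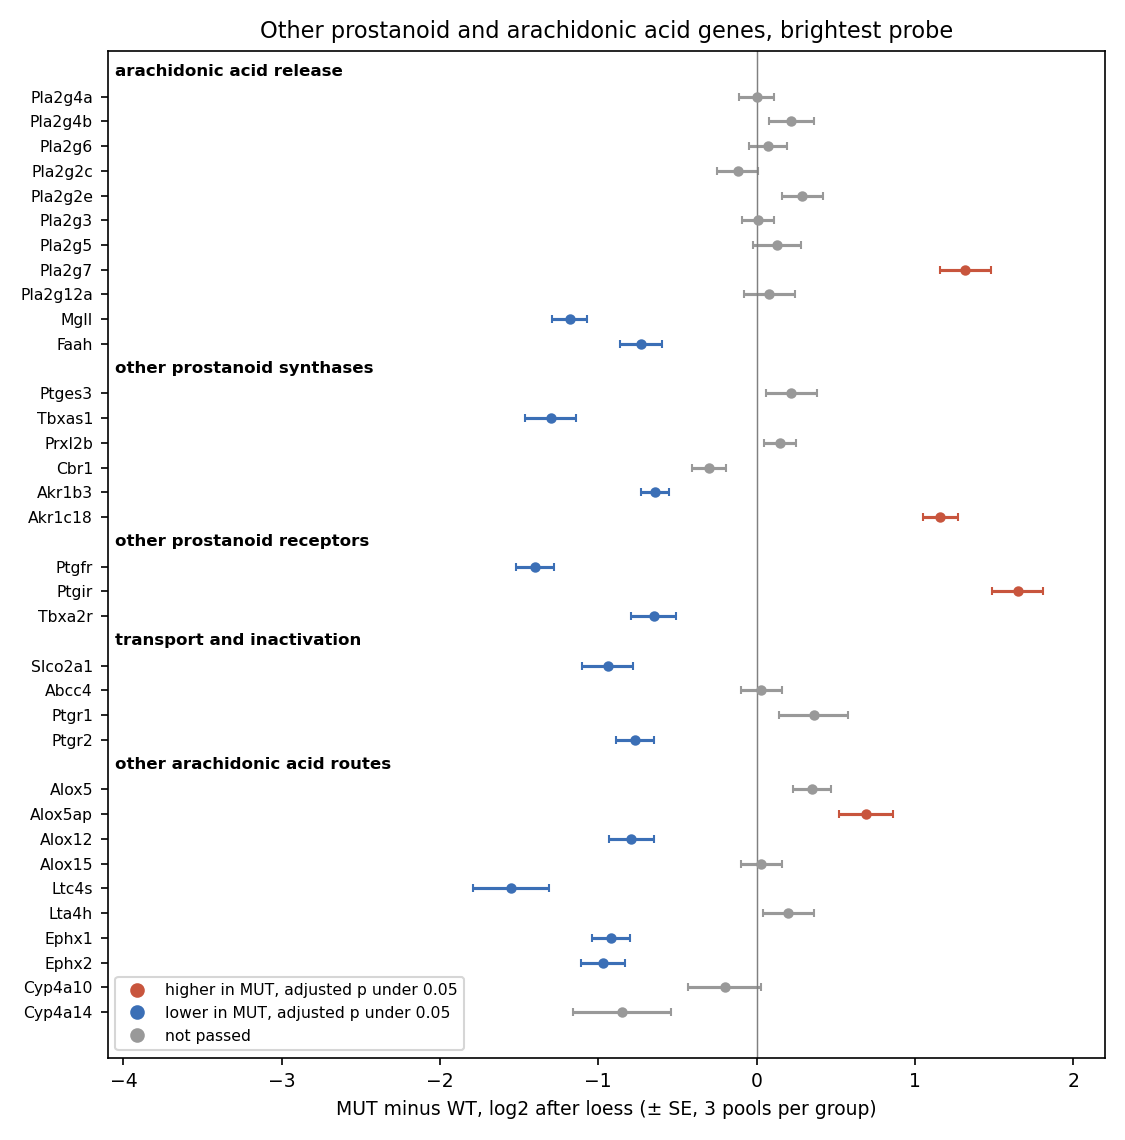
MUT minus WT difference in log2 after loess with its SE (horizontal axis, n = 3 pools per group) for the 34 tested other genes of the pathway, grouped by step (vertical axis). Red marks the 4 that rose, blue the 12 that fell, of which 7 are above 0 with the spike-in controls, and grey those that did not pass.

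Which genes followed the 6 called members most closely over the 6 arrays was measured by the root mean square difference of the log2 ratios, over 14545 named genes. Nearest to Ptgis were Ajap1 (0.14), Lrrc17 (0.19) and Pdgfrl (0.19). Nearest to the brighter Ptger3 probe were Lrrc66 (0.06), Mgst3 (0.11) and Rhcg (0.12), the last an ammonia transporter of the collecting duct. Ptges2 lay nearest to Acsl5 (0.07), Itm2b (0.09) and Mthfd1 (0.09), and Ptgds to Habp2 (0.08), Capn5 (0.09) and Dcdc2a (0.11). Ptger1 lay nearest to Mfsd9 (0.05), Pex11g (0.06) and Muc4 (0.07), and Ptgs2 to Prrg2 (0.04), Prex2 (0.04) and Mrpl43 (0.06).

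Markers of several cell types moved with these genes, and their part in the changes was not tested. Beside the rise of Ptgis and Ptgir, 6 of 8 interstitial stroma markers rose and none fell. Their median in WT pools 1 to 3 was 0.08, -0.90 and -1.52, while MUT pools 1 to 3 had 1.61, 1.39 and 1.27. WT pool 3 was lowest and MUT pool 1 highest there as for Ptgis. Of the cell types of vessel walls, 3 of 6 mural and smooth muscle markers rose (median change 0.71) and 5 of 6 endothelium markers fell (median change -0.91, and 0.03 with the spike-in controls). With a slide row block 2 of the 6 called stroma markers, all 3 called mural markers and 3 of the 5 called endothelium markers did not pass. Over the array, calls fell from 26.1% to 7.56% of tested probes with that block. Of 4 nephron progenitor markers 3 rose (median change 1.76). All 14 of these mural, endothelial and stromal genes that passed were well above background on every array. Beside the falls of Ptger3, Ptger1 and Ptges2, the 6 tested principal cell markers fell by 1.64 to 2.57 on the log2 scale and 4 of 5 markers of the thick limb and macula densa fell (median change -2.70). All 6 intercalated cell markers, the other main cell type of the collecting duct, fell (median change -2.46), as did 3 of 3 erythroid (-2.57) and 2 of 4 proximal tubule markers (-0.74, and 0.20 with the spike-in controls). Of 4 podocyte markers none passed. WT pool 2, the lowest WT pool for Ptger3, was also the lowest for the medians of thick limb (-0.74), intercalated cell (-0.42), proximal tubule (-1.11), podocyte (-1.05), erythroid (-1.19) and mural markers (-0.76). It was the highest WT pool for the medians of ureteric epithelium (0.29) and nephron progenitor markers (0.47). For principal cell markers it equalled WT pool 1 (-0.14), and for stroma, leukocyte and endothelium markers another WT pool was lowest.

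**Figure D5:**
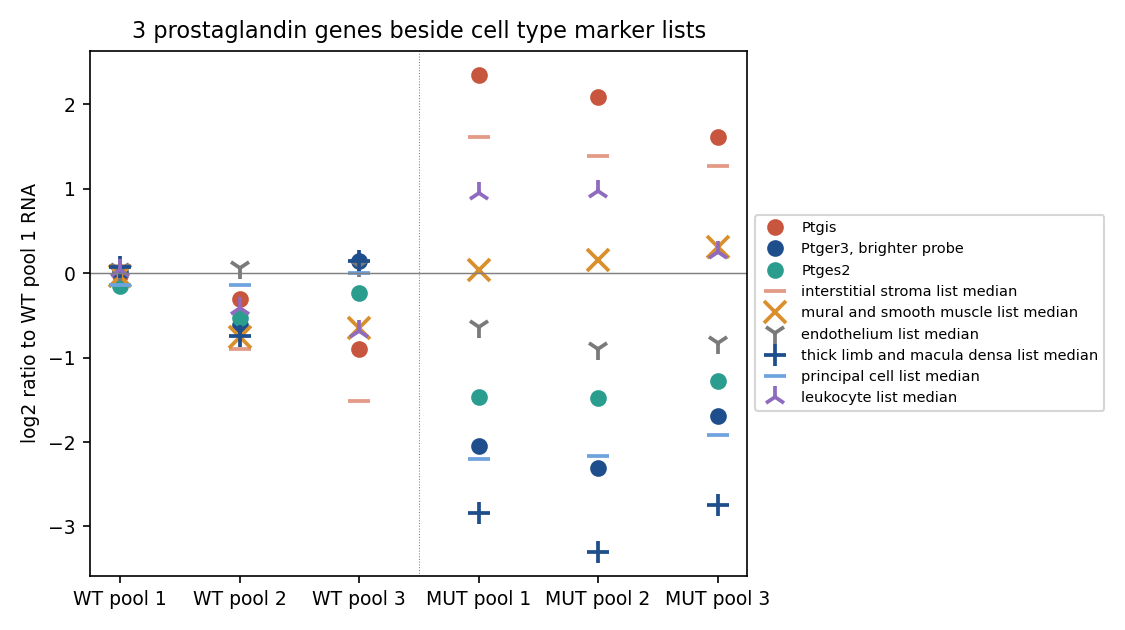
Log2 ratio to WT pool 1 RNA (vertical axis) in each pool (horizontal axis) for Ptgis, Ptger3 and Ptges2 (circles) beside the medians of 6 cell type marker lists (other symbols). Ptgis is at 1.61 to 2.35 in MUT pools beside stroma medians of 1.27 to 1.61. Ptger3 is at -2.31 to -1.69 beside medians of -2.20 to -1.92 for principal cells and -3.30 to -2.75 for the thick limb. Intercalated cell medians, at -2.74 to -2.32 in MUT pools, are not drawn.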

How the data were processed

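The submitters' processing notes name Agilent Feature Extraction 10.7.3.1 for the 6 two-colour arrays; all lay on 1 slide, per the file headers, and no dyes were swapped, per the labels. The deposited scanner files hold spot intensity (median signal and local background, and signals processed by the scanner software) and the log10 of the Cy5 to Cy3 ratio. The authors' deposited value table holds that log10 ratio rounded, within 0.00499 of the scanner files, with a median of 0 on each array.

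Background was corrected by normexp (offset 50), ratios were normalized by loess with control spots at weight 0, outlier spots were left out and spots of a probe averaged. A probe was tested where its Cy5 signal was well above background throughout at least 1 group, which kept 29002 of 55681, by limma's lmFit and eBayes with Benjamini-Hochberg adjustment over all of them (R 4.3.3, limma 3.58.1). A fold is 2 to the power of the log2 difference, and the offset understates folds of dim probes. Symbols came from unversioned RefSeq accessions on GRCm38.p6; the headers use an earlier mouse assembly, so genes are given without coordinates. A gene is represented by its brightest tested probe. The text names every member probe, called genes of the pathway lists, the other prostanoid receptors, the 3 genes nearest to each called member, and genes singled out after their values were seen (Pla2g4a, Abcc4, Ptges3). The members and lists were chosen with earlier results of these data known. The pipeline was tested on simulated data. Permutation tests are two-sided. One result is not reported here.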

Additional observations from a re-analysis of the deposited data

How the results depend on the processing

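Differences were recomputed 237 times (18 alternatives for each of 13 probes, and the other probe of 3 genes). Of these 237, 214 kept direction and side of the threshold and 9 changed sign. The call was lost in 12 and gained in 6, 2 of each with a change of sign. A changed filter on dim probes, the replicate block and the eBayes options cannot alter a difference, so no direction could turn there. The authors' value table repeats the scanner-processed ratios, so the 237 are not separate checks. The count of probes called over the array was 7584, and 19144 with the spike-in controls, 2194 with a slide row block and 3831 to 9536 with 1 pool left out (4890 without WT pool 1 and 3831 without WT pool 3). The number of the 10 genes called was 4 to 7 over all alternatives, from 4 with median centring or the slide row to 7 when any probe of a gene counts. Of the called probes 44.2% were higher in MUT pools, against 77.3% with median centring, 98.9% with the spike-in controls and 31.5% with the slide row. Signs turned with the spike-in controls at Ptgs1 (0.60), Ptgs2 (0.41), Ptger1 (0.00) and Ptger4 (0.87), at Ptger4 also with median centring (0.11), and with 1 pool left out, over a range of -0.18 to 0.05 (0.05 without WT pool 1 and 0.03 without MUT pool 1), at the brighter Hpgd probe with the slide row (-0.16), and at Ptges when the other probe was used (-1.42). The cause was not tested. Pool numbers correlated between groups at 0.14, 0.07 and 0.20 over deviations from the group means, so they were not taken as pairs, although each WT pool correlated best with the MUT pool of its number; with pool number as a replicate block 7245 probes and 6 of the 10 genes were called, and Ptgs2 had an adjusted p of 0.0464. All 13 probes were above background on every array, but the folds of dim probes, such as those of Ptgs2 and Ptger3, depend on the background correction.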
